A study of Homo sapiens with 12 samples.

Results

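The EGR family (EGR1, EGR2, EGR3 and EGR4), the NAB corepressors (NAB1 and NAB2) and SRF were followed in cancer cells evolved under hydroxychloroquine (HCQ). These 7 genes were taken by symbol from the 28278 rows of the count matrix, and all 7 passed the filter on low counts in each cell line, EGR3 and EGR4 in OVCAR3 through the control pools alone. They were chosen by their fold changes between evolved and control pools in these same libraries, EGR2 and EGR3 for a difference of change between the lines, so their changes are given as descriptions with standard errors and without p-values. HCQ is an antimalarial drug that raises lysosomal pH and blocks autophagy.

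Bulk polyA RNA was sequenced from cells labelled OVCAR3, an ovarian cancer line, and CCL218, a colorectal cancer line. HCQ-evolved cells had passed through 15 pulse-chases, each with 48 h of HCQ followed by fresh medium, and were then grown for 7 days without drug before collection at passage 15. Control cells were passaged without HCQ, in parallel on a paired plate, and were collected at passage 19, so the groups differ in passage label as well as in drug. In each of the 4 groups the wells of 1 96-well plate were combined by position into 3 pools, labelled L, M and R. This gave 12 libraries of 31147822 to 59965861 counts. All 3 pools of a group came from 1 plate, so the spread between pools, and every p-value built on it, is that between parts of a plate and may be technical. Control and evolved cells were on different plates, so drug, plate, passage label and the handling of a plate at collection cannot be told apart.

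EGR1 to EGR4 are zinc finger transcription factors of the immediate early class: growth factors, stress and other stimuli switch them on within minutes, without new protein synthesis, and the mRNAs are short-lived. The main route runs from RAS through the ERK kinases to ternary complex factors such as ELK1, which bind beside SRF at a CArG box, the core of the serum response element. EGR factors in turn bind a GC-rich site in other promoters, NAB2 among their targets, and the NAB proteins dock on EGR1, EGR2 and EGR3 and repress their activity.

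SRF's own recognition sequence was looked for first, because it is the DNA feature that links SRF to the EGR genes. Promoters in RefSeq (build GRCh38.p14, 250 bases before to 50 after each listed start) were matched for 6 of the 7 genes. The CArG box was searched on both strands, as were the cAMP response element TGACGTCA and the EGR site GCGTGGGCG. Among 35116 promoters of the same length, 1.29% held a CArG box, 1.85% the cAMP response element and 0.795% the EGR site. EGR1 held 2 CArG boxes and EGR2 held 1, at 1 of its 3 listed starts, and SRF itself held 2 at 1 of its 2 starts. The 150 bases before the start are printed below in the sense of the gene, with CArG boxes in capitals. EGR1 lies on the plus strand at chr5:138465329-138465478, EGR2 on the minus strand at chr10:62816367-62816516 and SRF on the plus strand at chr6:43171119-43171268.
EGR1: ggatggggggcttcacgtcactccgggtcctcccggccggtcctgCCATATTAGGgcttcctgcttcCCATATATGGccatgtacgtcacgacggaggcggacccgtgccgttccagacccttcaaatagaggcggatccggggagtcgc
EGR2: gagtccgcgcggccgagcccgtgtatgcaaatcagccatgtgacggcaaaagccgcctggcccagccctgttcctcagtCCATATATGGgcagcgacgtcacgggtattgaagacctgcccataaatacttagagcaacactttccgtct
SRF: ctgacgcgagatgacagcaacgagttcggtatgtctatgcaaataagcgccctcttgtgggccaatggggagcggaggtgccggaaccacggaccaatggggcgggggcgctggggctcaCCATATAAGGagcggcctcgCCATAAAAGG

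Counted from the first transcribed base as 0, the EGR1 boxes began at -105 and -83, the EGR2 box at -71 and the SRF boxes at -30 and -10. EGR2 and EGR1 shared the same 10 letters, CCATATATGG. No cAMP response element was found in any of the promoters matched. NAB1 held the EGR site at 2 of its 3 listed starts, where the windows overlap and the same bases lie at 13 and -175. The windows of EGR4 and NAB2 held none of the 3 motifs. A match is a run of letters and says nothing of binding, and the absence of a match concerns these letters in this window only.

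Levels are given in CPM, the counts of a gene relative to its library's total after scaling by the trimmed mean of M values (TMM), with all 12 libraries normalized together. The named symbols lie, on hg38 with GENCODE 44, at chromosome 5, 138465479 to 138469303 (EGR1, plus strand), chromosome 10, 62811996 to 62819167 (EGR2, minus), chromosome 8, 22687659 to 22693480 (EGR3, minus), chromosome 2, 73290929 to 73293701 (EGR4, minus), chromosome 2, 190646746 to 190692766 (NAB1, plus), chromosome 12, 57089043 to 57095476 (NAB2, plus) and chromosome 6, 43171269 to 43181506 (SRF, plus). Counts cover the exons of each gene as a whole. How the counting used strand is not given in the sources used here, and EGR2, EGR3, NAB1 and NAB2 share exon bases with other genes. NAB2 shares 69 bases with STAT6 on the opposite strand. EGR2 shares 145 bases and EGR3 164 bases with a long noncoding RNA, and NAB1 shares 589 and 10 bases with a pair of them, so reads there could not be assigned with certainty.

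EGR1, the founding member of the family, was by far the most abundant of the 7 genes in every pool. In control OVCAR3 it stood at 739 (L), 1752 (M) and 1148 (R) CPM. In HCQ-evolved OVCAR3 it stood at 608, 539 and 558 CPM. Every evolved OVCAR3 pool was below every control pool, while the control pools were spread 2.37-fold and the evolved pools lay close together. In control CCL218, EGR1 was at 778, 1406 and 1262 CPM. After HCQ evolution the CCL218 pools held 1819.5, 1693 and 1704 CPM. Here every evolved pool was above every control pool, the opposite order to OVCAR3, and again the evolved pools were the tighter group. The group means were 1213 ± 509 and 568 ± 35.7 CPM in control and evolved OVCAR3 and 1149 ± 329 and 1739 ± 70 CPM in CCL218 (SD, n = 3). Ordered by mean, evolved CCL218 was followed by control OVCAR3 and control CCL218, whose pools overlapped with their neighbours in that order, and evolved OVCAR3 stood apart, 2.02-fold below control CCL218.

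EGR2, known from Schwann cell myelination and hindbrain patterning, had the clearest reversal between the lines. In control OVCAR3 it was at 20.3, 47.8 and 32.1 CPM in the L, M and R pools. The HCQ-evolved OVCAR3 pools held 4.12, 2.51 and 2.24 CPM. The lowest control pool lay 4.93-fold above the highest evolved pool. In control CCL218 the level was 16.3, 17.5 and 16.5 CPM, and the HCQ-evolved CCL218 pools held 26.8, 22.6 and 23.8 CPM. The CCL218 groups did not overlap either, with the evolved pools the higher. Means were 33.4 ± 13.8, 2.96 ± 1.02, 16.8 ± 0.643 and 24.4 ± 2.17 CPM for control OVCAR3, evolved OVCAR3, control CCL218 and evolved CCL218 (SD, n = 3). In the order of means, control OVCAR3 and evolved CCL218 overlapped, and the next steps, down to control CCL218 and then 5.68-fold down to evolved OVCAR3, were between groups that did not.

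EGR3, an immediate early factor with roles in muscle spindles and lymphocytes, was sparse throughout and was nearly absent from the counts of HCQ-evolved OVCAR3. It had 110, 138 and 169 counts (2.84, 4.33 and 3.13 CPM) in the control OVCAR3 pools. The evolved OVCAR3 pools held 2, 0 and 0 counts, under the floor of 3 counts per library taken here as the limit of detection. Summed over pools, 417 control counts stood against 2, a level 282-fold lower in evolved cells after scaling to library size (95% counting interval 77.7 to 2339). Fitted fold changes of such a gene depend on a prior count, so the ratio of counts is used for it. In CCL218 the control pools held 42, 44 and 36 counts and the evolved pools 92, 56 and 66, or 0.919 ± 0.136 against 1.34 ± 0.479 CPM (SD, n = 3). Evolved L, at 1.89 CPM, was the highest CCL218 pool, and the other evolved pools, at 1.02 and 1.1 CPM, lay beside the control range of 0.768 to 1.03 CPM, so the groups overlapped. Among the 4 groups, control OVCAR3 was highest and did not overlap with evolved CCL218, which overlapped with control CCL218.

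Counting intervals and floors cover counting error only. Of the 29816 matrix entries holding 1 to 4 counts, 78.9% were even numbers, more than single independent reads would give, so intervals that take each count as independent may be too narrow.

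EGR4, the member without a NAB docking site, was lower in evolved pools of both lines. In control OVCAR3 it was at 5.47, 4.4 and 3.85 CPM, and in evolved OVCAR3 at 0.768, 0.617 and 0.301 CPM. In control CCL218 it was at 3.34, 2.22 and 1.83 CPM, and in evolved CCL218 at 1.77, 1.69 and 1.35 CPM. None of the 4 groups overlapped with its neighbour in the order control OVCAR3, control CCL218, evolved CCL218 and evolved OVCAR3, but control R (1.83 CPM) and evolved L (1.77 CPM) of CCL218 nearly touched. The means were 4.57 ± 0.823, 2.47 ± 0.784, 1.6 ± 0.22 and 0.562 ± 0.238 CPM in that order (SD, n = 3).

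SRF, the MADS-box factor that binds the CArG box, was lower in evolved than in control OVCAR3 and overlapped between the CCL218 groups. Control OVCAR3 pools held 58.8, 78.2 and 64.6 CPM and evolved OVCAR3 pools 42.6, 39.4 and 42.6 CPM. In CCL218 the control pools held 42.8, 63.3 and 63 CPM and the evolved pools 54.9, 49.5 and 57.1 CPM. The OVCAR3 groups stayed apart, while in CCL218 the evolved pools lay inside the control range. Evolved OVCAR3, at 41.6 ± 1.87 CPM, was 1.3-fold below evolved CCL218, at 53.9 ± 3.91 CPM, without overlap, and the other neighbours in order, control OVCAR3 at 67.2 ± 9.95 and control CCL218 at 56.3 ± 11.7 CPM, overlapped (SD, n = 3).

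NAB1 and NAB2, which repress EGR factors bound to DNA, differed by less than the spread between pools in either line. NAB1 held 31, 41.6 and 34.1 CPM in control OVCAR3 and 38.2, 35.6 and 52.3 CPM in evolved OVCAR3. It held 47.5, 54.7 and 59.7 CPM in control CCL218 and 51.2, 55 and 53.5 CPM in evolved CCL218. NAB1 thus followed the line label more than the treatment, although neighbouring groups overlapped throughout. NAB2 held 41.2, 34 and 33.9 CPM in control OVCAR3 and 36.8, 34.2 and 32.9 CPM in evolved OVCAR3. In CCL218 it held 48, 30.5 and 31.2 CPM in control and 41.3, 35 and 34.5 CPM in evolved pools. The 4 group means of NAB2 lay between 34.6 and 37 CPM, and its highest pool in each group was L.

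**Figure D1:**
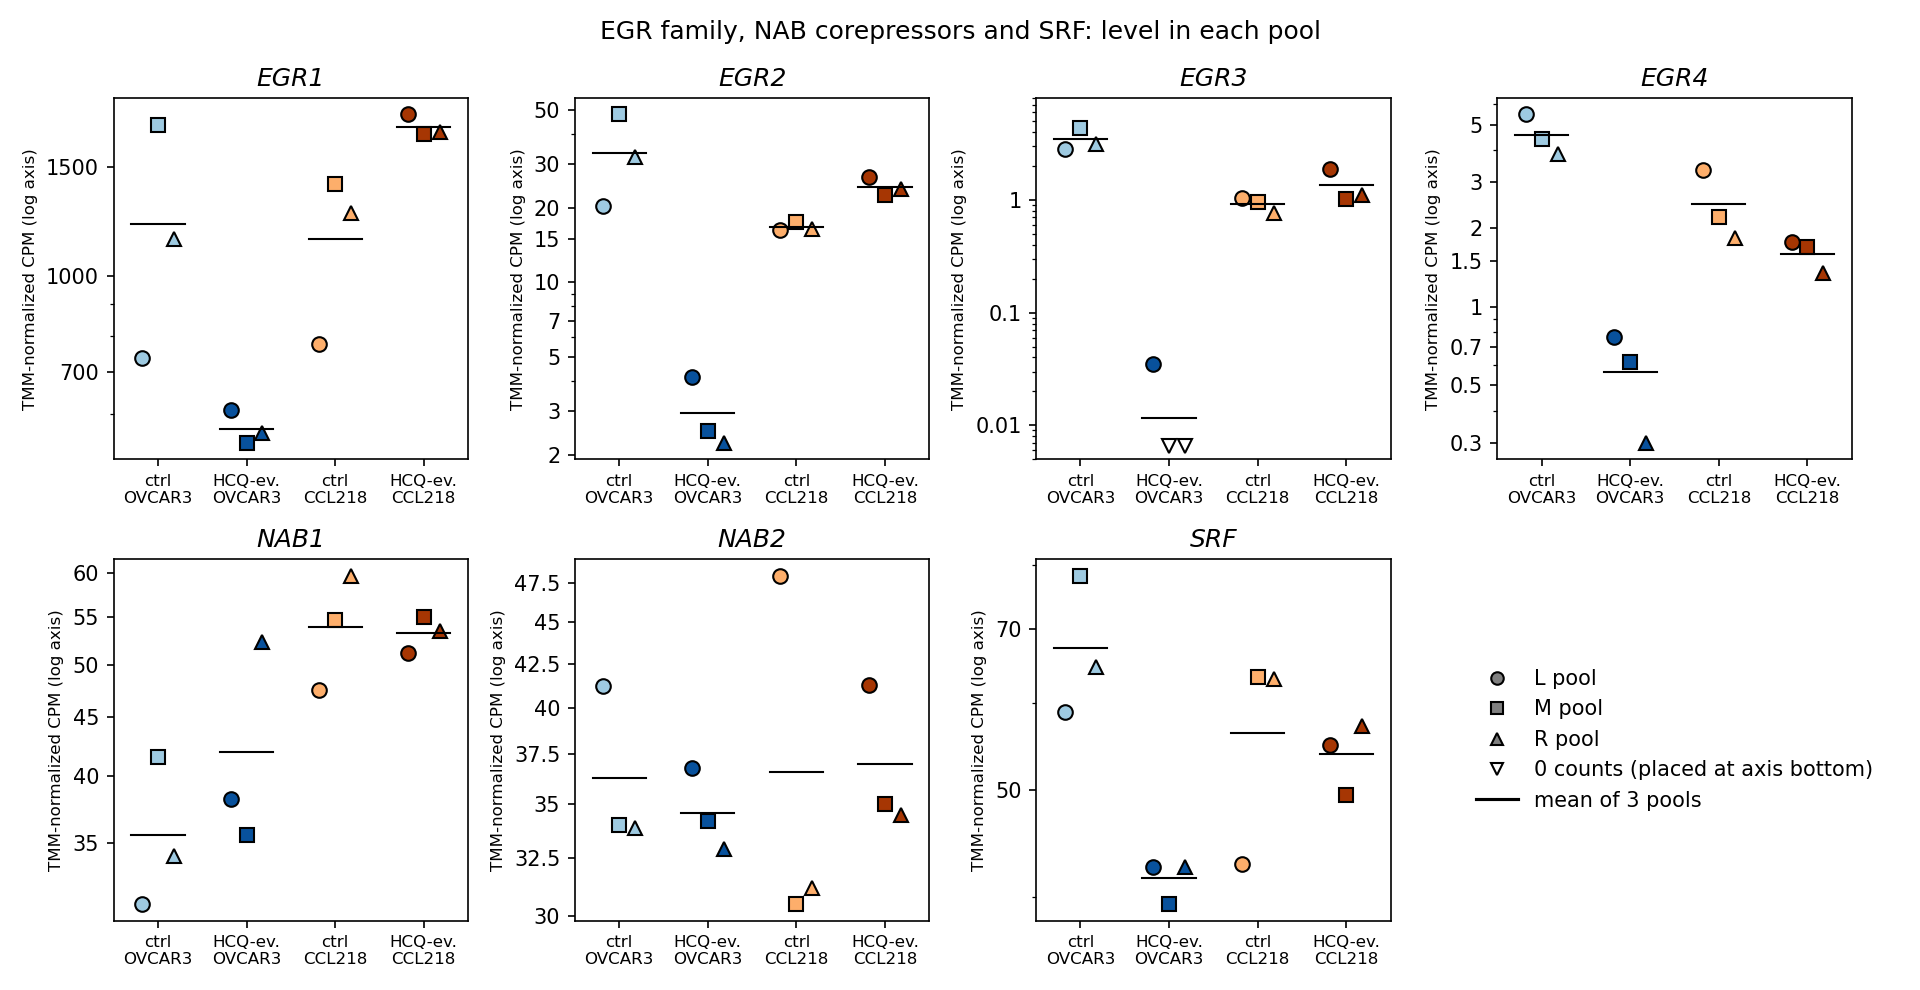
Level of each of the 7 genes in each pool, in TMM-normalized CPM on a log axis that differs between panels and does not start at 0, with a bar at the mean of 3 pools. Evolved OVCAR3 lies below all other groups for EGR1, EGR2, EGR3, EGR4 and SRF, with 2 pools at 0 counts for EGR3 (open triangles, placed at the foot of the axis), whereas NAB1 and NAB2 overlap between control and evolved pools.

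Per kilobase of exon, levels can be set side by side between genes. In control OVCAR3, EGR1 averaged 387 CPM per kb, followed by SRF (15.9), NAB2 (12.7), EGR2 (9.01), NAB1 (7.28), EGR4 (1.93) and EGR3 (0.682). In evolved OVCAR3, EGR1 averaged 181 CPM per kb and EGR2 0.798, so that EGR2 had moved from a level near that of the NAB genes to one far below NAB2 (12.1) and NAB1 (8.6). In control and evolved CCL218, EGR1 averaged 366 and 554 CPM per kb and EGR2 4.53 and 6.58, with NAB1 (11 and 10.9) above EGR2 in both. EGR1 made up 96.3 to 99.5% of the counts of the 4 EGR genes in every pool.

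The ratio of EGR1 to EGR2 counts within a pool does not depend on library scaling. It was 36.4, 36.6 and 35.7 in control OVCAR3, although EGR1 itself varied from 739 to 1752 CPM among those pools. In evolved OVCAR3 it was 148, 215 and 249. EGR2 was therefore lower relative to EGR1 in each evolved OVCAR3 pool, as well as in CPM. In CCL218 the ratio was 47.6, 80.2 and 76.4 in control pools and 67.9, 75 and 71.6 in evolved pools, so evolved pools lay within the control range and the 2 genes were higher by alike amounts.

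**Figure D2:**
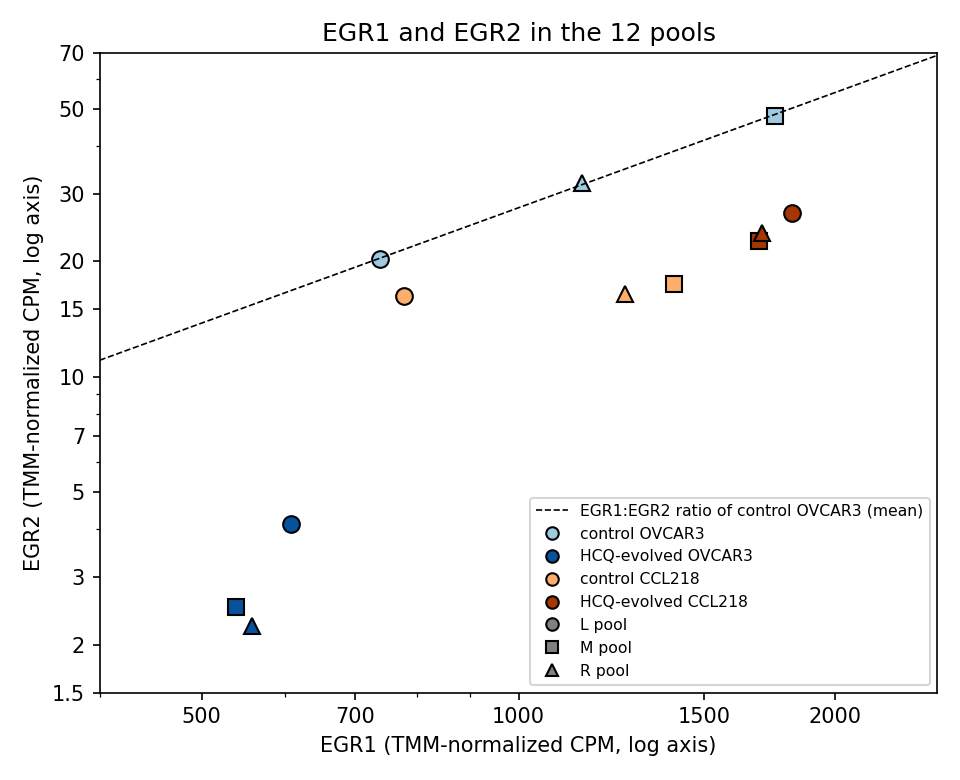
EGR2 against EGR1 in the 12 pools, both in TMM-normalized CPM on log axes. The 3 control OVCAR3 pools lie on a line of constant ratio (35.7 to 36.6), the evolved OVCAR3 pools lie far below it (148 to 249), and the CCL218 pools lie between (47.6 to 80.2).

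The question of the study's design, what differs in cells that had adapted to HCQ, was put to each line with the edgeR quasi-likelihood test, which gave fold changes on the log2 scale of evolved over control. In OVCAR3 the fitted change was -1.08 (SE 0.32) for EGR1, -3.49 (SE 0.41) for EGR2, -3.00 (SE 0.38) for EGR4 and -0.68 (SE 0.19) for SRF. NAB1 was at 0.26 (SE 0.23) and NAB2 at -0.05 (SE 0.17). The median over the 12204 genes tested was 0.02. In OVCAR3, 5 of 7 genes had evolved pools wholly below control pools, and 12.7% of all genes tested did so (13.0% were wholly higher, 25.7% either). At a Benjamini-Hochberg adjusted p under 0.05 over all genes, called here, EGR2, EGR3 and EGR4 were lower (3 of 7), where 1.21% of all genes were called lower, 0.647% higher and 1.86% in either direction. Since this contrast was in view when the genes were chosen, nothing is read from these counts.

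The OVCAR3 calls depended on which pools were kept. EGR3 and EGR4 were at 1 CPM or more in OVCAR3 in the 3 control pools alone, so without any 1 of these they were not tested, and having passed through the group where they were high they had to differ. Of the 5 genes then tested, edgeR called 0 without control L or without control R, where 3 had an unadjusted p under 0.05, and called EGR2 without control M. Such an unadjusted p was found for 1350 of 12018 genes without control L and 1390 of 12042 without control R. The log2 change of EGR2 lay between -3.80 and -3.13 whichever pool was left out. Without evolved M only EGR3 was called, and without evolved L or evolved R the same 3 genes were called as with all pools. The numbers called over all genes were then 3 without control L and 4 without control R. DESeq2 and a fit of all 12 libraries each called 5 of 7, adding EGR1 and SRF. Over all genes DESeq2 called 1105 of 12204 and the fit of all 12 libraries 1165 of 12613. The EGR1 change in OVCAR3 was -0.71 without control M, the pool with the highest EGR1, and -1.36 without control L, the pool with the lowest.

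In CCL218 the changes were smaller. EGR1 was at 0.60 (SE 0.22), EGR2 at 0.53 (SE 0.13), EGR3 at 0.53 (SE 0.31) and EGR4 at -0.62 (SE 0.28) on the log2 scale. SRF was at -0.07 (SE 0.18), NAB1 at -0.02 (SE 0.13) and NAB2 at 0.01 (SE 0.21), and the median of the 12241 genes tested was -0.02. Pools of EGR1 and EGR2 were wholly higher and those of EGR4 wholly lower, 3 of 7 genes with groups apart, where 18.6% of all genes were apart and higher, 17.3% lower and 36.0% either. edgeR called 0 of 7, against 6.46% of all genes (3.82% higher, 2.64% lower). An unadjusted p under 0.05 was found for 2 of 7 (EGR1 and EGR2) and for 3084 of all 12241 genes. DESeq2 called 1 of 7, EGR2, and 2172 of all 12241 genes. Pools at the same plate position deviated together in CCL218, and with plate position as a block 1 gene, EGR2, was called, with 1744 in place of 791 genes called overall.

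Control L decided most of the smaller values in CCL218. Without it the EGR1 change was 0.37 rather than 0.60, that of EGR4 was -0.35 rather than -0.62, that of SRF was -0.24 and that of NAB2 was 0.25, and edgeR called EGR1 and EGR2. In that fit 3047 of all 12102 genes tested were called. Without evolved L the EGR3 change was 0.21 in place of 0.53. In each line control L had the lowest EGR1 and SRF and the highest NAB2 of its group. The control pools also differed in how their levels followed transcript length: the rank correlation of a pool's deviation from the mean with length, across genes that are not independent, was -0.32, 0.478 and -0.384 for L, M and R in control OVCAR3 and -0.454, 0.43 and 0.031 in control CCL218. In evolved pools it was -0.379, -0.399 and 0.521 in OVCAR3 and -0.212, 0.263 and 0.425 in CCL218. With the trend in length and GC content removed, the changes in OVCAR3 were -1.01 for EGR1, -3.42 for EGR2 and -2.84 for EGR4, and EGR4 in CCL218 was at -0.43. The part of these length trends in the remaining differences was not tested, nor was their part in the likeness of CCL218 pools at the same position.

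**Figure D3:**
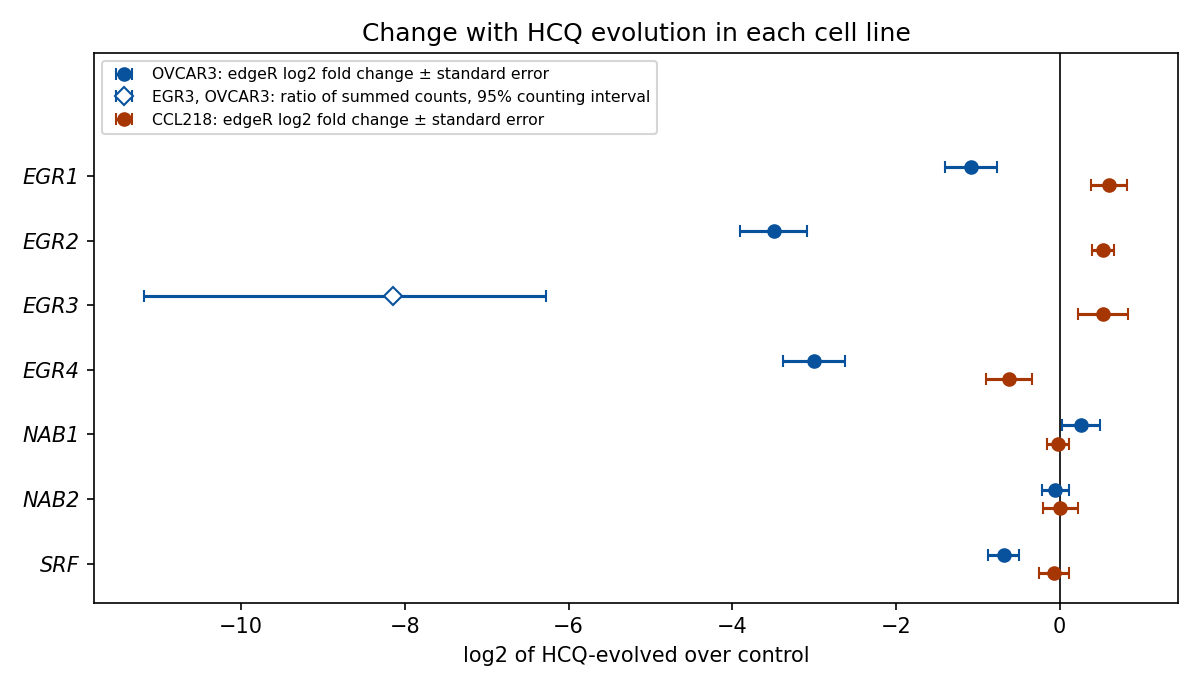
Change of each of the 7 genes between HCQ-evolved and control pools, as log2 fold change with its standard error, in OVCAR3 (blue) and CCL218 (red). EGR3 in OVCAR3 is drawn as the ratio of summed counts with its 95% counting interval. EGR1 and EGR2 lie left of 0 in OVCAR3 and right of it in CCL218, EGR4 lies left in both, and NAB1 and NAB2 lie near 0.

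**Figure D4:**
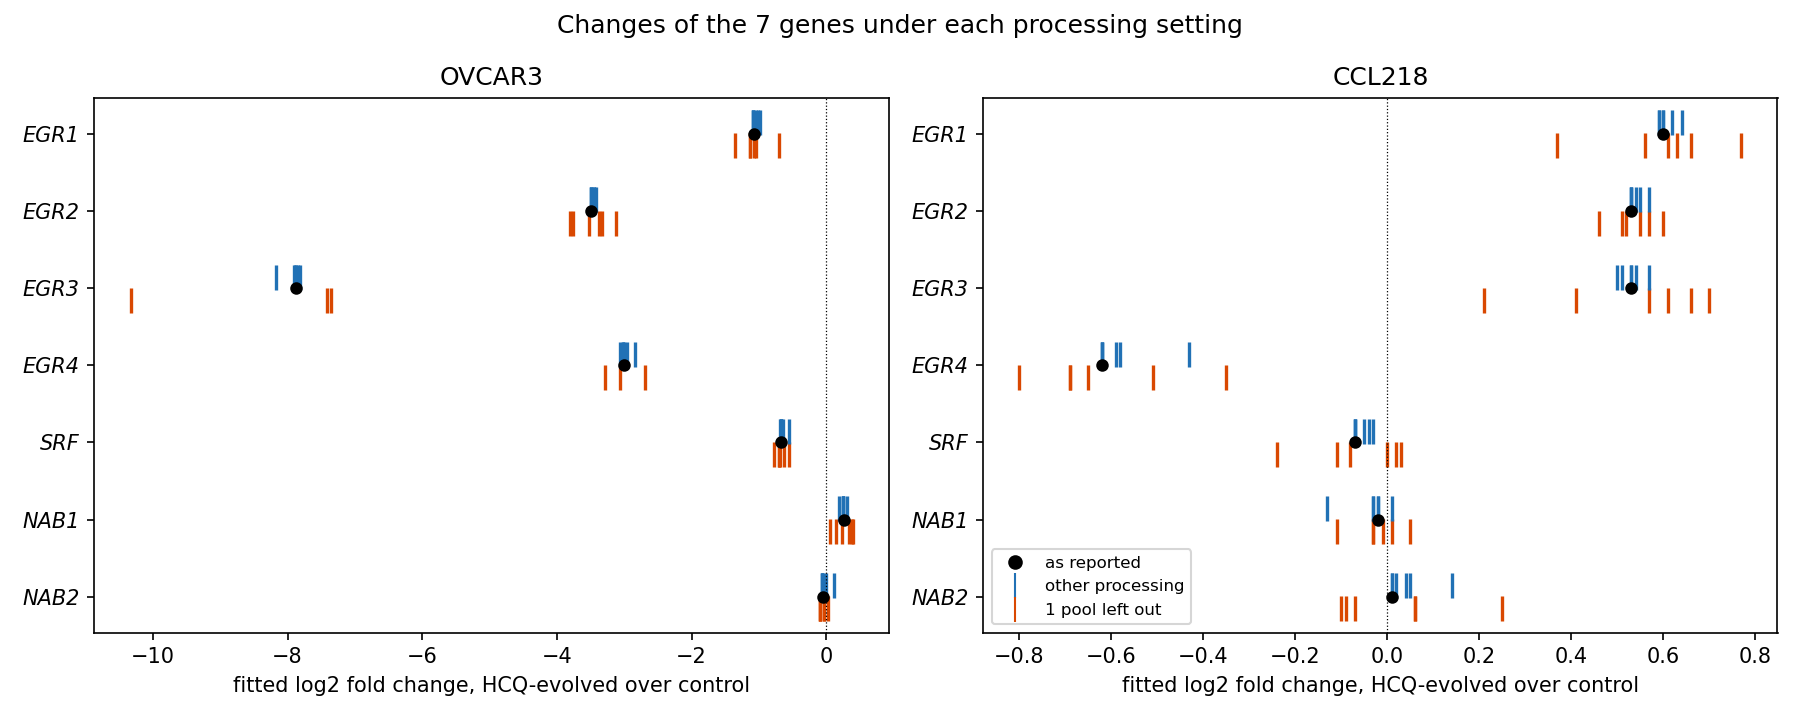
Fitted log2 fold change of each gene as reported (black), with each pool left out in turn (orange) and under other processing (blue), on axes that differ between the lines. EGR3 and EGR4 in OVCAR3 have no value without a control pool. EGR1, EGR2, EGR4 and SRF keep their sign in OVCAR3, as do EGR1, EGR2, EGR3 and EGR4 in CCL218, and the fitted values of EGR3 in OVCAR3 depend on the prior count.

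Taking the change in CCL218 minus that in OVCAR3 in a fit of all 12 libraries, the difference was 1.69 (SE 0.41) for EGR1, 4.03 (SE 0.42) for EGR2, 2.40 (SE 0.48) for EGR4 and 0.63 (SE 0.24) for SRF on the log2 scale. It was -0.26 for NAB1 and 0.08 for NAB2. For EGR4 the difference lay in size, as its level was lower in evolved cells of both lines. edgeR called 3 of 7 differences (EGR2, EGR3 and EGR4), all higher in CCL218 minus OVCAR3, against 0.690% of all genes in that direction, 0.182% in the other and 0.872% in either, and this too is a description of genes chosen for it. EGR1 and EGR2 had groups apart in opposite directions, lower in OVCAR3 and higher in CCL218, as did 0.963% of all genes (1.37% were apart in opposite directions either way round). With single pools left out, the EGR2 difference ranged from 3.69 to 4.35 and that of EGR1 from 1.33 to 1.95, the lowest for each being without control OVCAR3 M. EGR4 lost its call with control M or R of either line left out, without evolved OVCAR3 M, without any 1 evolved CCL218 pool, without control OVCAR3 L and with plate position as a block, while its difference stayed between 2.10 and 2.70.

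The labels of the lines were checked against marker genes. The summed level of 12 colorectal markers was 959.8 to 1177 CPM in control OVCAR3, 259.7 to 676 in evolved OVCAR3, 1204 to 1764 in control CCL218 and 1205 to 1273 in evolved CCL218. Of the 9 ovarian serous markers, 5 or 6 averaged at least 1 CPM in each group, and SOX17 was at 0 in every group. Their sums were 59.8 to 104 CPM in control OVCAR3 and 79.8 to 102 in evolved OVCAR3. In CCL218 the ovarian sums were 68.1 to 137 CPM in control and 108 to 150.4 in evolved pools. The colorectal sum was carried by LGALS4 and VIL1, at 729.8 and 241 CPM in control OVCAR3, where KRT20 was at 0 and CDX1 at 0.293. KRT20 and CDX1 were as low in control CCL218, at 0.0082 and 0.305 CPM. Of the 12 colorectal markers, 10 averaged at least 1 CPM in each control group and 9 in each evolved group. As a sum, the libraries labelled OVCAR3 thus expressed the colorectal markers more than the ovarian ones. Single markers went either way. WFDC2 averaged 23.2 CPM in control OVCAR3 and 7.69 in control CCL218, and MSLN 14.3 and 63.6. In evolved cells CDH17 was at 3.49 CPM in OVCAR3 and 52.5 in CCL218, and LGR5 at 21.3 and 16.6. The mean profiles of control OVCAR3 and control CCL218 correlated across genes at 0.978, where control and evolved profiles correlated at 0.975 in OVCAR3 and 0.979 in CCL218. Whether the labels stand for distinct lines cannot be told apart with these counts, and OVCAR3 here means libraries so labelled. Evolved OVCAR3, the group lowest in EGR1, EGR2, EGR3, EGR4 and SRF, was also the lowest in the colorectal sum, and the part of that in the result was not tested. Of 7 fibroblast markers 1 was at 1 CPM or more, with sums of 0.636 to 3.34 CPM. Of the 6 leukocyte markers, 3 were over 1 CPM and the list's sum of 1344 to 2789 CPM was carried by LYZ, while PTPRC, CD3E and MS4A1 were near 0. In bulk RNA, fewer cells expressing a gene and less of its RNA per cell cannot be told apart.

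Genes around the EGR and SRF factors were read from 4 lists of genes that are not members, also drawn up with earlier results in view. The control pools are the same as in the comparisons above. In the list of the kinase cascade and partners of SRF (22 genes, RAS to ERK, ternary complex factors and coactivators), 20 were tested in each line. In OVCAR3, 0 of 20 were called by edgeR, 2 had an unadjusted p under 0.05 and DESeq2 called 1. Their median log2 change was 0.17, with 18 of 20 above 0, beside a median of 0.02 over all genes. MAP2K1, the kinase MEK1, had the smallest p of the list, with 122 ± 18.3 CPM in control and 180 ± 4.53 CPM in evolved OVCAR3 (SD, n = 3), a log2 change of 0.58 (SE 0.18) that did not pass (edgeR adjusted p = 0.162, and 0.0417 to 0.43 over the alternatives). In CCL218, 1 of 20 was called, the ERK- and p38-activated kinase RPS6KA4, which fell from 100.1 ± 9.36 to 62.3 ± 4.8 CPM (log2 -0.69, edgeR adjusted p = 0.0275). That call was lost without control R, evolved L, evolved M or evolved R of CCL218, with adjusted p up to 0.188. The list's median in CCL218 was 0.13, with 17 of 20 fitted changes above 0, beside -0.02 over all genes.

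The other immediate early genes, induced by the same stimuli as the EGR factors, were the list with the most calls in OVCAR3. Of 30 tested, 15 fell and 0 rose, by log2 -4.96 to -1.43, and 50.0% called compared with 1.86% of all genes. No fitted change of the 30 was above 0, and the median was -1.52 against 0.02 for all genes. ATF3, a stress-induced bZIP repressor, fell from 192 ± 26.9 to 6.07 ± 1.53 CPM (log2 -4.96, SE 0.27, edgeR adjusted p = 0.000892). FOSB, an AP-1 subunit, fell from 788 ± 85 to 117 ± 20.6 CPM (log2 -2.73, SE 0.22, edgeR adjusted p = 0.00604). NR4A1, an orphan nuclear receptor, fell from 254 ± 40.4 to 39.9 ± 6.55 CPM (log2 -2.65, SE 0.21, edgeR adjusted p = 0.00604). This list was drawn up with earlier results of these pools known, so its direction is not independent evidence. Each group was 1 plate, and the part of plate and collection in these changes was not tested. The number called in this list was 2 without control L, 6 without control M, 2 without control R, 7 without evolved L, 6 without evolved M and 19 without evolved R, and 9 with plate position as a block. ATF3 kept its call in 12 of 12 alternatives. NR4A1 lost it without control L and FOSB without control L or control R, with adjusted p of 0.0566 at most and a log2 change of -2.88 to -2.62 for FOSB over the alternatives.

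In CCL218 the number called in the same list depended on the fit. Of 31 tested, 2 rose and 1 fell (9.68% called, 6.46% of all genes), and 13 were called with plate position as a block, by which the CCL218 pools deviated together. In the fit without it 19 had fitted changes above 0 and the median was 0.22 against -0.02 for all genes. KLF4, a zinc finger factor of differentiating epithelium, rose from 19.4 ± 1.48 to 52.4 ± 4.05 CPM (log2 1.43, SE 0.13, edgeR adjusted p = 0.00253). MAFF, a small MAF factor, rose from 51 ± 6.73 to 84.4 ± 9.14 CPM (log2 0.72, edgeR adjusted p = 0.0352), and PTGS2, cyclooxygenase 2, fell from 16.6 ± 4.17 to 7.1 ± 1.7 CPM (log2 -1.23, edgeR adjusted p = 0.0355). The count was 20 without control L, 1 with any other single pool left out and 14 by DESeq2. Over all genes, 3047 of 12102 were called without control L and 102 to 443 with another pool left out. DESeq2 called 2172 of 12241 genes and the fit with the block 1744. KLF4 was called in 12 of 12 alternatives, while MAFF and PTGS2 lost their calls without control M, without control R and without any 1 evolved pool, with adjusted p up to 0.197, and PTGS2 also with all 12 libraries in 1 fit (adjusted p = 0.194).

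The difference between lines was tested itself for these genes. The lists were drawn up with earlier results of these pools known, so the calls are not independent evidence. How the list counts change with a pool left out was not examined. Over all genes the 110 differences called became 38 to 212 with a pool left out and 35 with plate position as a block. In the immediate early list 16 of 31 differences were called, where 0.872% of all genes were, all higher in CCL218 minus OVCAR3 (0.690% of all genes), by log2 1.28 to 4.72, with a median of 1.58 beside -0.03 for all genes. ATF3 (4.72, SE 0.48, edgeR adjusted p = 0.00167), KLF4 (2.50, SE 0.32, adjusted p = 0.00474), FOSB (2.56, SE 0.35, adjusted p = 0.00613), NR4A1 (2.90, SE 0.45, adjusted p = 0.0131) and MAFF (1.28, SE 0.20, adjusted p = 0.0131) were among them, and PTGS2 was not (-1.01, adjusted p = 0.865). In the kinase list 0 of 20 differences were called by edgeR and 1 had an unadjusted p under 0.05, as did 1149 of all 12613 genes.

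Actin and contractile targets of SRF, the genes through which SRF shapes the cytoskeleton, had called shares closer to those of all genes than the immediate early genes did in OVCAR3. There, 1 of 25 tested fell and 0 rose, where 1.86% of all genes were called, with a median of -0.06 against 0.02. The gene called was CNN3, an actin-binding calponin, at 3.87 ± 0.42 CPM in control and 0.322 ± 0.0562 CPM in evolved pools (log2 -3.56, SE 0.29). CNN3 passed the filter through the control OVCAR3 pools alone and was below it in CCL218, so it had to differ, and its calls support nothing. In CCL218, 1 of 23 rose and 1 fell (8.70% called, 6.46% of all genes), with a median of -0.13 against -0.02. MYH9, nonmuscle myosin heavy chain, rose from 1339.7 ± 114 to 2127 ± 133 CPM (log2 0.66, edgeR adjusted p = 0.0336) and TPM1, a tropomyosin, fell from 189 ± 11.6 to 134 ± 5.76 CPM (log2 -0.50, edgeR adjusted p = 0.0459). The number called was 3 with plate position as a block, 10 without control L and 0 with any other single pool left out, where the adjusted p of MYH9 reached 0.196 and that of TPM1 0.224, and both calls were lost with all 12 libraries in 1 fit (adjusted p = 0.311 and 0.0812). Over all genes, 3047 of 12102 were called without control L. In the difference between lines 1 of 25 was called, CNN3 (3.03, SE 0.41), under the same limit.

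Described targets of EGR factors went in both directions. In OVCAR3, 1 of 19 tested rose and 3 fell (21.1% called, 1.86% of all genes), 9 had fitted changes above 0 and the median was -0.01 against 0.02. PTGES, a prostaglandin E synthase, rose from 4.29 ± 1.4 to 16.8 ± 1.81 CPM (log2 1.98, SE 0.28, edgeR adjusted p = 0.0226). GDF15, a stress cytokine, fell from 608 ± 188 to 80.4 ± 41.8 CPM (log2 -2.90, SE 0.45, edgeR adjusted p = 0.0289) and CCND1, cyclin D1, fell from 179.6 ± 28.5 to 83.7 ± 9.12 CPM (log2 -1.08, SE 0.19, edgeR adjusted p = 0.038), beside NR4A1, which this list shares with the immediate early one. The number called was 0 without control L and 1 without control M, control R, evolved L or evolved M, and PTGES, GDF15 and CCND1 then lost their calls, with adjusted p up to 0.171. With plate position as a block 3 were called, and CCND1 lost its call (adjusted p = 0.118, and 1.17e-05 to 0.168 over the alternatives). In CCL218, 4 of 19 rose and 0 fell (21.1% called, 6.46% of all genes), with a median of 0.22 against -0.02. VEGFA, the angiogenic growth factor, rose from 164 ± 16 to 475 ± 42.3 CPM (log2 1.54, SE 0.13, edgeR adjusted p = 0.00199) and PTGES from 1.62 ± 0.468 to 8.08 ± 0.58 CPM (log2 2.32, SE 0.24, edgeR adjusted p = 0.00409), each in 12 of 12 alternatives. ICAM1, a leukocyte adhesion molecule, rose from 9.09 ± 0.536 to 15.6 ± 0.828 CPM (log2 0.77, SE 0.13, edgeR adjusted p = 0.0173) and lost the call without control R or any 1 evolved pool, with adjusted p up to 0.131. PDGFB was the remaining gene called. The list's count in CCL218 was 10 without control L, 3 without control M, 2 with any other pool left out and 6 with plate position as a block. Over all genes, 3047 of 12102 were called without control L and 1744 of 12241 with the block. PTGES rose in both lines, whereas EGR1 and EGR2 differed in direction between them, and the difference for PTGES was 0.36 (SE 0.37, edgeR adjusted p = 0.995). The difference between lines was called for CCND1 (1.28, SE 0.21, edgeR adjusted p = 0.0178) and NR4A1.

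**Figure D5:**
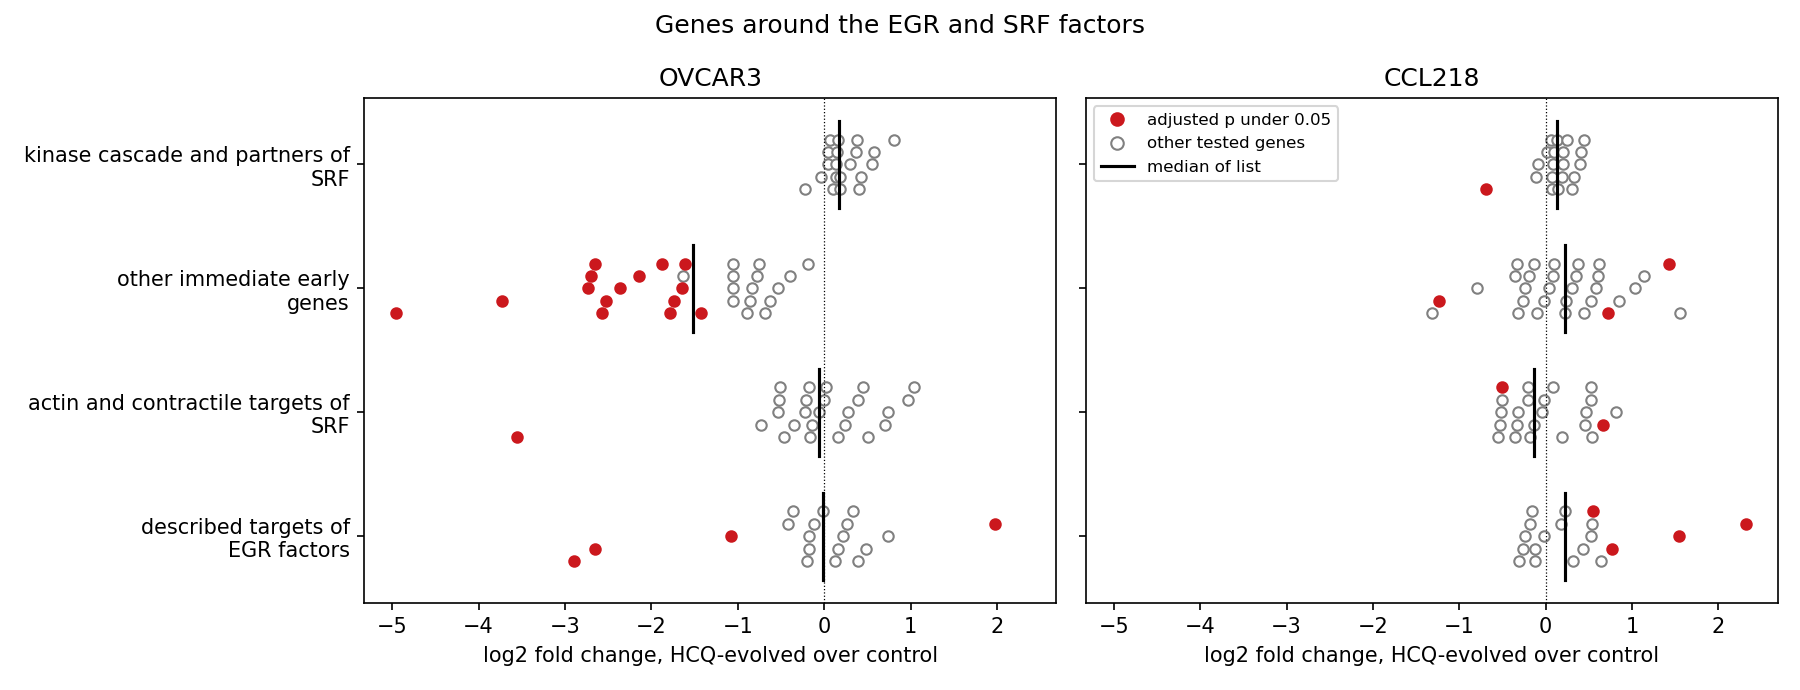
Log2 fold change of each tested gene of the 4 lists in OVCAR3 (left) and CCL218 (right), with genes at an adjusted p under 0.05 filled and the list median as a bar. All 30 immediate early genes lie left of 0 in OVCAR3 (median -1.52), whereas in CCL218 they lie on either side of it (median 0.22), and the other lists have medians between -0.13 and 0.22.

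How the 7 genes varied together was described by Pearson's r of log2(CPM + 0.5) over the 12 pools, which share plates and, for evolved OVCAR3, stand apart as a group. EGR2 and EGR3 had r of 0.93, EGR3 and EGR4 0.91, EGR1 and EGR2 0.84, EGR2 and EGR4 0.83, and SRF had 0.82 with both EGR2 and EGR3. Over the 9 pools without evolved OVCAR3, r was 0.82 for EGR2 and EGR3, 0.75 for EGR3 and EGR4, 0.48 for EGR1 and EGR2 and 0.31 for EGR2 and EGR4. The likeness of EGR2 and EGR3 thus did not rest on the evolved OVCAR3 pools alone, and that of EGR2 and EGR4 largely did. EGR1 and EGR4 had r of 0.41 over 12 pools and -0.63 over 9. SRF had 0.62 with EGR2 and 0.58 with EGR3 over 9 pools. NAB1 and NAB2 had r between -0.33 and 0.48 with all other members over 12 pools. Over 9 pools that range was -0.88 to 0.54. NAB1 then had -0.88 with EGR4, -0.81 with EGR3 and 0.54 with EGR1, and NAB2 had -0.68 with SRF.

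Among 12606 genes outside the family, those with the pattern most like EGR1 over the 12 pools were ELL2, a transcription elongation factor (r 0.936), ZFP36L2, an mRNA decay factor (0.931), MAOA (0.93), DPP4 (0.93) and TACC2 (0.93). All 5 had r of at least 0.81 over the 9 pools without evolved OVCAR3. Most like EGR2 were TRIB1, a pseudokinase (0.958), BTG2 (0.95), CCN2 (0.95), RNF157 (0.94) and H2BC21 (0.937). Of these TRIB1 kept r of 0.9 over 9 pools, with means of 870.2 and 283 CPM in control and evolved OVCAR3 and 490.2 and 666 CPM in CCL218, and BTG2 had 0.35. Most like EGR3 were ATF3 (0.967), TRIB1 (0.966), H2BC21 (0.943), CCN1 (0.934) and RIMBP2 (0.924), with r of 0.74 to 0.92 over 9 pools. Thus TRIB1 and H2BC21 were among the 5 nearest of both EGR2 and EGR3, and neither was among those of EGR1. Above r of 0.9 lay 19 genes for EGR1, 19 for EGR2 and 11 for EGR3.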

How the data were processed

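The deposited file holds counts of reads per gene symbol for 12 libraries. Per the labels and the study's methods, the authors aligned reads to hg38 with STAR, removed duplicates and counted reads with featureCounts. 0 columns were left without a sample. The members and the gene lists were chosen with earlier results of these data known. Here, counts were scaled by TMM and each line was fitted alone in edgeR 4.0.16 (R 4.3.3; robust quasi-likelihood F test, a gene needing 1 CPM or more in 3 or more libraries, Benjamini-Hochberg threshold 0.05). The difference between lines was a contrast in a fit of all 12 libraries. Totals were 31147822 to 59965861 counts per library. Standard errors are the fold change over the square root of F. Exon lengths came from GENCODE 44. Named genes are every member, per list and line up to 3 called genes with the smallest p in each direction (the 1 with the smallest p where none was called), and the 5 genes most correlated with EGR1, EGR2 and EGR3. A few further genes (such as PDGFB and marker genes) were named after their values were seen. Group means were removed first. Pools at the same plate position then correlated at 0.565 (L), 0.295 (M) and 0.231 (R) in CCL218, where each exceeded 0.1. In OVCAR3 they correlated at 0.443, -0.715 and -0.52. Pools at the same position thus deviated together throughout in CCL218 alone, judged from the data and not from a label. In both lines the correlation was positive where the length trends of both pools shared a sign and negative where they did not. Control and evolved pools came from different plates. Whether position or the length trend lay behind this likeness was not tested. The fit without a block stayed the main one in both lines, and the blocked value is given beside the CCL218 results that it changes. Alternatives were DESeq2 1.42.0, its size factors, no filter, a block for position, 1 fit of all libraries, each pool left out and, chosen after seeing the data, removal of the trend with length and GC content. The fits were tested on simulated data with independent genes and pools, in which 200 genes were changed by log2 1.5. They recovered 147 in OVCAR3, 186 in CCL218 and 77 for the difference between lines, with 7, 10 and 1 false calls. A difference between lines of that size was thus often missed.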

Additional observations from a re-analysis of the deposited data

Results flagged for a closer look

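EGR1 and EGR2 had every evolved pool on 1 side of the control pools in OVCAR3 and on the other side in CCL218, with differences of 1.69 and 4.03 in log2 change between the lines. The difference was within the fit over all genes, where edgeR called that of EGR2 and not that of EGR1, but the genes were chosen with these values known, so neither is an independent test.

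Among the genes named from the lists, which are a subset of those called, the edgeR interaction test found the change to differ between lines for ATF3 (4.72), CNN3 (3.03), NR4A1 (2.90), FOSB (2.56), KLF4 (2.50), MAFF (1.28) and CCND1 (1.28). Each value is the log2 change in CCL218 minus that in OVCAR3, and all 7 were positive. The lists were drawn up with earlier results of these pools known, so these are not independent tests. CNN3 passed the filter through the control OVCAR3 pools alone, so its difference was fixed by the filter and supports nothing.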

How the results depend on the processing

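Of the members' alternative values, 154 stayed within the spread between pools, 8 moved beyond it and none changed sign where a gene was called. The numbers of genes called over the whole table moved most. In OVCAR3 the 227 genes became 549 without a filter, 1105 by DESeq2, 81 with plate position as a replicate block, 841 with the length and GC trend removed and 1165 with all libraries in 1 fit, and 3 to 557 with a pool left out. In CCL218 the 791 became 2172 by DESeq2, 1744 with the block and 1977 with the trend removed, and 102 to 3047 with a pool left out, the highest without control L. For the difference between lines the 110 became 463, 35 and 308 under the same 3 settings and 38 to 212 with a pool left out. The cause was not tested. In OVCAR3, where pools at the same position did not all deviate together, the block left the same 3 members called. Low levels limit EGR3 and EGR4, and 3 pools from 1 plate limit every comparison.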
